A study of Mus musculus with 29 samples.

Results

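Hepatocytes clear organic anions, bile acids and drugs from blood into bile with transport proteins in opposite membrane faces, and the transcripts of 9 of these transporters were examined in the livers of young and old mice. The 9 genes, of 55421 rows in the count table, were Slco1a1, Slco1a4, Slco1b2, Slco2b1, Slc22a7, Abcc2, Abcc3, Abcb1a and Abcg2, picked by symbol with their levels in these mice already known. CPM in each mouse (counts of a gene divided by the mouse's scaled total, in units of 1e+06 reads) chose them, so their levels and differences are a description and carry no test. Whole liver polyA RNA was sequenced in 6 groups that received daily gavage for 14 days of either vehicle or HDM201 at 10 mg/kg, an inhibitor of MDM2, the protein that marks p53 for breakdown. The question of the design was how the drug and age change liver gene expression in each sex.

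The old mice were C57BL/6J females labelled 20 months and C57BL/6J males labelled 24 months, given vehicle or HDM201. The young mice were C57BL6/N of both sexes labelled 5 months, given vehicle, so age and substrain cannot be told apart in any comparison of old with young. The methods of the study state slightly different ages for the same cohorts than the labels do. Counts were present for 5 young vehicle, 4 old vehicle and 5 old HDM201 females, and for 4 young vehicle, 4 old vehicle and 5 old HDM201 males. Total counts ran from 16485900 to 23570458 per mouse, with a median of 19149235. All 8 hepatocyte markers (Alb, Apoa1, Ttr, Cps1, Asgr1, Tat, Cyp2e1 and Fah) were detected in each of the 27 mice, with summed levels of 79147 to 161764 CPM. Because the tissue was whole liver, fewer hepatocytes and less transcript per hepatocyte cannot be told apart.

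On the blood-facing (sinusoidal) side, the organic anion transporting polypeptides take up bile acids, steroid conjugates and drugs. Slco1a1 (Oatp1a1), Slco1a4 (Oatp1a4), Slco1b2 (Oatp1b2) and Slco2b1 (Oatp2b1) encode members of this family, and Slc22a7 encodes the organic anion transporter Oat2. On the bile-facing (canalicular) side, Abcc2 (Mrp2) exports conjugates such as bilirubin glucuronide, Abcb1a (P-glycoprotein) exports hydrophobic drugs and Abcg2 (Bcrp) exports sulfate conjugates, urate and porphyrins. Abcc3 (Mrp3) instead returns glucuronides to the blood across the basolateral membrane. In mice, Slco1a1 and Slco1a4 are textbook examples of liver genes that differ between the sexes through the pattern of growth hormone release, which acts through STAT5b, and the drug-sensing receptors CAR and PXR and the stress-sensing factor Nrf2 are known to induce several of the others.

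Slco1a1, Slco1a4 and Slco1b2 lie near each other on mouse chromosome 6 (GRCm38). Slco1b2 (ENSMUSG00000030236.10) spans 141629518 to 141686646 on the plus strand, Slco1a4 (ENSMUSG00000030237.14) spans 141805440 to 141856199 on the minus strand and Slco1a1 (ENSMUSG00000041698.11) spans 141907282 to 141946962 on the minus strand. Abcg2 is on the same chromosome, far from these 3 genes, at chr6:58584523-58695676. The others lie at chr7:99657804-99711340 (Slco2b1), chr17:46432183-46438457 (Slc22a7), chr19:43782192-43840740 (Abcc2), chr11:94343295-94392997 (Abcc3) and chr5:8660077-8748575 (Abcb1a). The 250 bases before the RefSeq start sites of the 3 neighbours, from GRCm38.p6, are shown because they are neighbours of which Slco1a1 and Slco1a4 differed between the sexes in opposite directions. They cover chr6:141946963-141947212 on the minus strand for Slco1a1, chr6:141856221-141856470 on the minus strand for Slco1a4 and chr6:141629268-141629517 on the plus strand for Slco1b2, and capitals mark motif matches on either strand (TGACCT is AGGTCA read on the other strand).
Slco1a1: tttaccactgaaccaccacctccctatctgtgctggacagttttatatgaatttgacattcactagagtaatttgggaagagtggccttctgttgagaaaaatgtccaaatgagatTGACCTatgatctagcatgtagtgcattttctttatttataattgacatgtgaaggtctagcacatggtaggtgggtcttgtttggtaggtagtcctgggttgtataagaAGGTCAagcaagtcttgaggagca
Slco1a4: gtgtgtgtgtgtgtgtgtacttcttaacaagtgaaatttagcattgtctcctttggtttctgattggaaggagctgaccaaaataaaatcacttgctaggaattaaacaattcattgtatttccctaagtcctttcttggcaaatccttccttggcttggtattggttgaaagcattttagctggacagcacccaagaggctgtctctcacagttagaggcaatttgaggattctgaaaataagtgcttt
Slco1b2: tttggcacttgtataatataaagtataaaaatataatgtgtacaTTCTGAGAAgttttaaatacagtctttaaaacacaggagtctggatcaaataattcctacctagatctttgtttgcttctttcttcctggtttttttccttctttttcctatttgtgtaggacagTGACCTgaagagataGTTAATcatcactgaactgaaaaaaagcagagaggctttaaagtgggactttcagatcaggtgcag
The motifs searched on both strands were AGGTCA (the core of many nuclear receptor sites), TTCNNNGAA (STAT5), TGACNNNGC (Nrf2), GCGTG (the aryl hydrocarbon receptor) and GTTAAT (the core of HNF1 sites). Positions count back from the start site. AGGTCA was at -134 and -24 before Slco1a1. Before Slco1b2 the STAT5 motif was at -206, AGGTCA at -81 and GTTAAT at -66, and none of the 5 motifs was found in the window of Slco1a4. These motifs were present in 14.0%, 7.02%, 10.2%, 28.2% and 6.43% of 32851 RefSeq promoters of the same length, in the order in which they are listed above. Of the 9 genes, 7 had a RefSeq promoter, with 11 start sites in all, and 5, 2, 1, 0 and 1 of these 11 windows held the motifs in the same order. The only start site of Abcb1a lay 92986 bases from the gene start given above. Alternative start sites lay 12149 and 56023 bases away for Abcg2, and 4498 and 15531 bases away for Slco2b1. A match is a string of letters and not evidence of binding.

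FPKM, the deposited unit that divides fragments by transcript length and library size and so corrects for transcript length, was used to compare levels between genes. Slco1b2 had the highest FPKM of the 9 genes in all 6 groups, with group medians from 165 in old vehicle females to 243 in young vehicle females, and its range did not overlap that of the next gene in any group. Abcc2 had the next highest median in every group except old vehicle females, where Abcc3 (median 87.9 FPKM) and Abcc2 (83.6 FPKM) had overlapping ranges. In old HDM201 females the ranges of Abcc2 (93.2 to 137.2 FPKM) and Abcc3 (64.6 to 94.7 FPKM) also overlapped. Abcb1a was the lowest of the 9 in young females and in all 3 male groups, with medians of 4.62 FPKM in young females and 0.986 FPKM in young males. In both groups of old females the lowest gene was Slco1a1, at a median of 0.23 FPKM with vehicle and 0.171 FPKM with HDM201. Slco1a1 ranked 3 of 9 in young vehicle males (68.5 FPKM) and in old vehicle males (64.2 FPKM), with a range overlapping that of Abcc3, and 7 of 9 in young females (13.8 FPKM), between Abcg2 and Slc22a7 with overlapping ranges. Slco1a4 had a median of 63.6 FPKM in young females and did not differ beyond its range from Slco2b1 (60.7 FPKM).

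**Figure D1:**
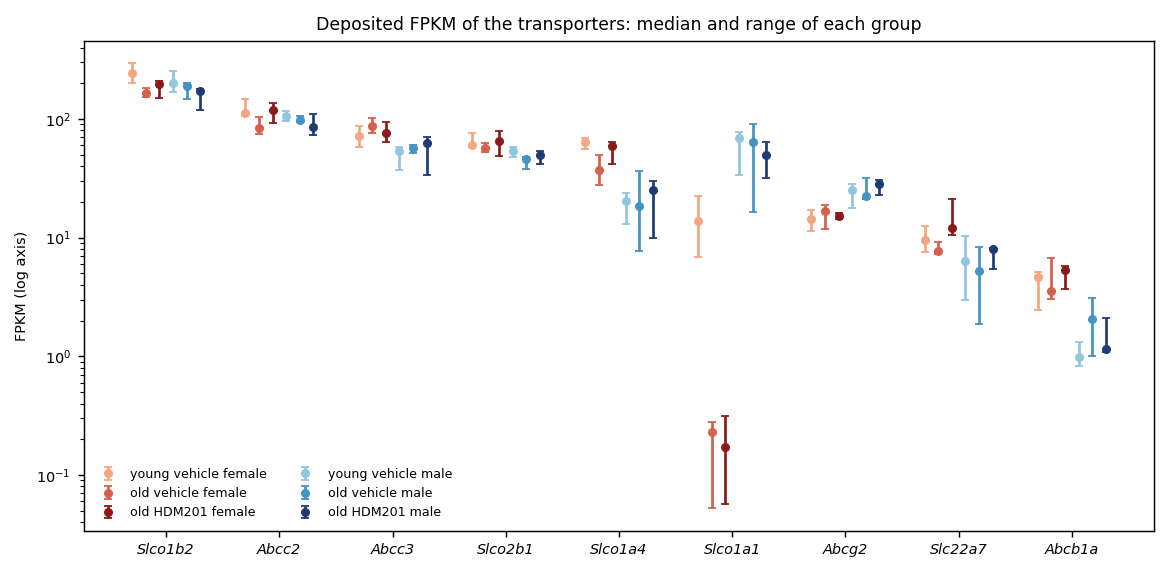
Deposited FPKM (vertical log axis) of the 9 transporters, with points for the median and bars for the lowest to highest mouse of each of the 6 groups, mice with counts only. Slco1b2 is highest in all 6 groups and Slco1a1 spans from 0.171 FPKM in old HDM201 females to 68.5 FPKM in young vehicle males.

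Of the 9 genes, Slco1a1 had the largest log2 difference in any comparison, between old and young vehicle females. Its CPM in young vehicle males, in order of replicate number, was 331, 291, 152.5 and 270.2, against 48.9, 91.3, 75.6, 59.3 and 30.7 in young vehicle females. Every young male was above every young female, and the log2 difference of females minus males was -2.11 ± 0.29 (SE), which is 4.31-fold lower in females. In old vehicle females Slco1a1 was 3.6, 2.95, 2.43 and 3.39 CPM, and with HDM201 at the same age it was 3.43, 3, 2.45, 3.88 and 1.56 CPM. All 9 old females were below 4 CPM, far under the lowest young female at 30.7 CPM, and these levels rest on 33 to 87 reads per mouse. The log2 difference of old minus young vehicle females was -4.28 ± 0.30 (SE), or 19.4-fold lower in old females. Between the HDM201 and vehicle groups of old females the log2 difference was -0.12 ± 0.24 (SE), and the groups overlapped.

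In males Slco1a1 showed no such separation by age. Old vehicle males, numbered 2 to 5, had 69.5, 322, 204 and 395 CPM, and their range enclosed that of the young males. The mean was 247.5 ± 142 CPM (SD, n = 4) in old vehicle males and 261 ± 76.8 CPM (SD, n = 4) in young males. Old HDM201 males had 239, 207, 238, 151.5 and 117 CPM, and the log2 difference from old vehicle males was -0.37 ± 0.40 (SE), smaller than its SE. Old vehicle male 2, at 69.5 CPM, was the lowest of its group, and without it the log2 difference of old minus young males changed from -0.07 ± 0.43 (SE) to 0.24.

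The deposited FPKM of Slco1a1 were lower in old females, relative to young females, than the counts were. The median ratio of FPKM to CPM was 0.233 in young females and 0.237 to 0.268 in the 3 male groups, but 0.0726 and 0.0498 in old females given vehicle and HDM201. From mean FPKM the log2 difference of old minus young females was -6.18. The location of the reads within the gene is not given by these tables, so whether the reads counted in old females came from the usual Slco1a1 transcript was not tested.

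Slco1a4 had the opposite sex difference to Slco1a1. Young vehicle females had 239.7, 246, 237.5, 228 and 235.5 CPM, a narrow range, and young vehicle males had 68.4, 45.8, 89.7 and 81.5 CPM. The log2 difference of females minus males was 1.72 ± 0.16 (SE), 3.29-fold higher in females with no overlap. Old vehicle females had 89.7, 141, 156.5 and 97.1 CPM, all below the young females, at a log2 difference of -0.95 ± 0.15 (SE) or 1.93-fold lower. Old HDM201 females had 146, 206, 195, 157 and 187 CPM, intermediate between the old and young vehicle females. Their log2 difference from old vehicle females was 0.55 ± 0.16 (SE), and 1 vehicle mouse (156.5 CPM) lay within the range of the treated mice. The age and drug comparisons in females share the same 4 old vehicle mice, so their values stand side by side and are not independent of each other.

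**Figure D2:**
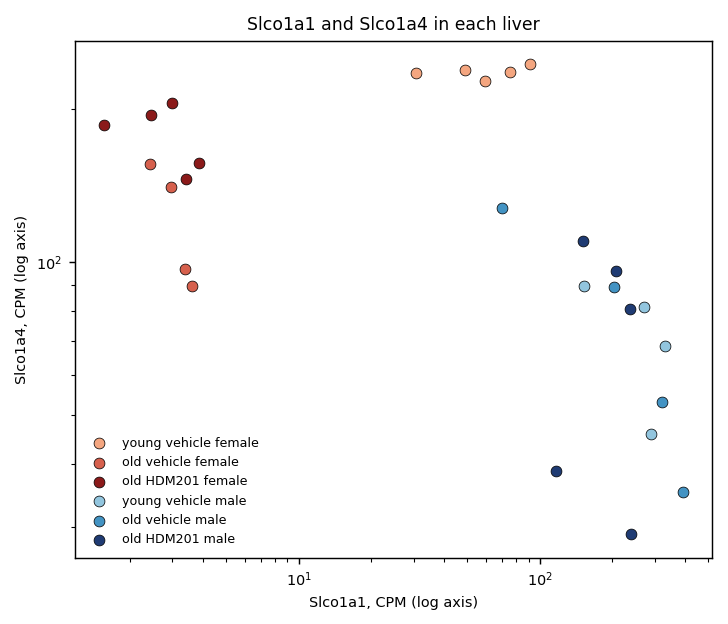
Slco1a1 CPM (horizontal log axis) against Slco1a4 CPM (vertical log axis), where each point is a mouse coloured by its group. Young females lie above 220 CPM of Slco1a4 at 30.7 to 91.3 CPM of Slco1a1, old females lie to the left below 4 CPM of Slco1a1, and males lie at the lower right with old vehicle male 2 nearest to the females.

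Among males Slco1a4 varied several-fold within each old group. Old vehicle males had 128, 52.9, 89.3 and 35.2 CPM and old HDM201 males had 29.1, 95.9, 81, 110.1 and 38.8 CPM. The mouse with the least Slco1a1 among old vehicle males, number 2, had the most Slco1a4, and the mouse with the most Slco1a1, number 5, had the least Slco1a4. The log2 difference of HDM201 minus vehicle was -0.10 ± 0.44 (SE) and changed sign when old vehicle male 2 was left out, to 0.27. The log2 difference of old minus young males was 0.10 ± 0.36 (SE), well within its SE.

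Slco1b2, the most abundant of these uptake transporters, was lower in old than in young females. Young females had 1208, 942, 1107, 804 and 897 CPM and old vehicle females had 617, 548, 667 and 558 CPM, with no overlap and a log2 difference of -0.71 ± 0.12 (SE), 1.64-fold lower. Old HDM201 females had 569.6, 767, 580.4, 692 and 727 CPM, overlapping the vehicle mice. In males, the means were 816 ± 163 CPM (SD, n = 4) for young vehicle, 714 ± 116 CPM (SD, n = 4) for old vehicle and 563 ± 90.1 CPM (SD, n = 5) for old HDM201. The log2 difference was -0.18 ± 0.17 (SE) for old minus young males and -0.34 ± 0.15 (SE) for HDM201 minus vehicle, and both pairs of groups overlapped.

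Slco2b1 had the smallest difference between old and young females of the 4 Slco genes. It was at 257, 296, 242, 243 and 273 CPM in young females and at 198, 177, 220.4 and 198.5 CPM in old vehicle females. The groups did not overlap, and the log2 difference was -0.38 ± 0.09 (SE), 1.3-fold lower in the old mice. In FPKM the groups overlapped, at 58.4 to 75.7 in young and 52.6 to 63.2 in old vehicle females, and the log2 difference from mean FPKM was -0.16. Old HDM201 females had 186, 223, 233, 215 and 262 CPM and overlapped the old vehicle females. All 3 male groups lay between 148 and 238 CPM, and young females were higher than young males by 0.28 ± 0.10 (SE) on the log2 scale without overlap. Slco2b1 is overlapped on the opposite strand by Gm15635 and Gm34280, which reached at most 4.31 and 1.54 CPM, and the strand setting of the counting is not given in the sources used here.

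Slc22a7 was the gene of the 9 that separated HDM201 from vehicle in old females. Old vehicle females had 14.3, 14.9, 14.8 and 19.3 CPM and old HDM201 females had 33.3, 42.4, 23.3, 19.7 and 23.9 CPM. The lowest treated mouse, at 19.7 CPM, was just above the highest vehicle mouse, at 19.3 CPM. The log2 difference was 0.83 ± 0.20 (SE), 1.78-fold higher with HDM201, and it ranged from 0.65 to 0.94 when each mouse was left out in turn. Its call in the table-wide test was lost without old vehicle female 1, 2 or 4 or without old HDM201 female 3. Young females had 17.7, 22.1, 26.5, 21.1 and 18.2 CPM, a range that overlapped both old groups, and the log2 difference of old vehicle minus young females was -0.39 ± 0.13 (SE). Males spread more widely, with 18.7, 22.7, 12 and 6.72 CPM in young vehicle, 3.98, 13.5, 9.98 and 19.9 CPM in old vehicle and 13, 11.9, 16.6, 16 and 16.2 CPM in old HDM201 mice. In males the log2 difference of HDM201 minus vehicle was 0.32 ± 0.34 (SE), and it was 0.03 without old vehicle male 2.

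**Figure D3:**
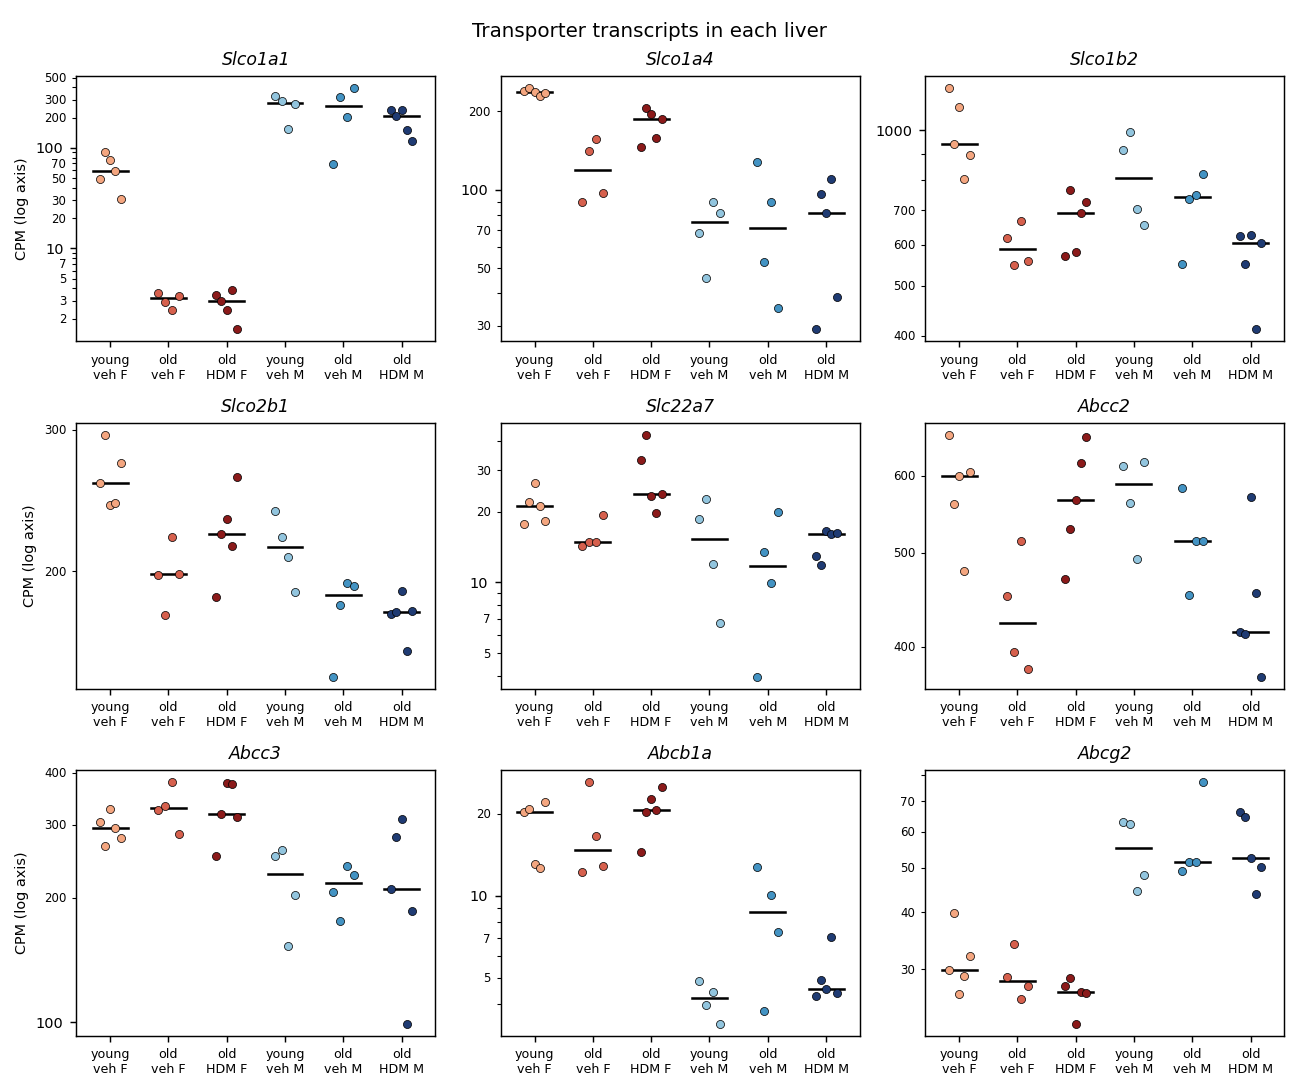
CPM (vertical log axes, with a separate scale in each panel) of the 9 transporters in the 27 mice with counts, where points are mice and bars are group medians (veh, vehicle; HDM, HDM201; F, female; M, male). Slco1a1 is below 4 CPM in every old female, Slco1a4 and Abcb1a are higher in young females than in young males and Abcg2 is higher in males.

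Of the canalicular exporters, Abcb1a had a sex difference like that of Slco1a4 and Abcg2 had the reverse. Abcb1a was at 20.3, 20.8, 13.1, 12.6 and 22.1 CPM in young females and 4.87, 3.98, 4.45 and 3.4 CPM in young males, a log2 difference of 2.08 ± 0.20 (SE) or 4.23-fold with no overlap. Old females were at 12.2, 26.1, 16.5 and 12.9 CPM with vehicle and 14.5, 20.3, 22.7, 20.7 and 25 CPM with HDM201, which overlapped each other and the young females. Old vehicle males had 12.7, 3.77, 10.1 and 7.37 CPM, where mice 2, 4 and 5 were above every young male and mouse 3 was within the young range. The log2 difference of old minus young males was 1.03 ± 0.32 (SE), 2.05-fold higher. Old HDM201 males had 4.3, 4.91, 4.55, 7.08 and 4.42 CPM, and their log2 difference from old vehicle males was -0.74 ± 0.30 (SE), with overlap.

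In CPM, Abcg2 did not overlap between females and males at any age or treatment. In FPKM the sexes did not overlap within an age and treatment. Between groups they did, as old vehicle female 2 (19.0 FPKM) was above young vehicle male 3 (17.8 FPKM). Young males had 63, 62.5, 44.4 and 48.1 CPM and young females had 29.9, 39.9, 26.5, 29 and 32.1 CPM, at a log2 difference of -0.81 ± 0.14 (SE) for females minus males. The females were 1.75-fold lower, and the groups did not overlap. All 14 females lay between 22.8 and 39.9 CPM and all 13 males between 43.9 and 77.0 CPM. Within females the means were 29.1 ± 3.5 CPM (SD, n = 4) with vehicle and 26.5 ± 2.19 CPM (SD, n = 5) with HDM201 in old mice, and within males they were 57.3 ± 13.2 CPM (SD, n = 4) and 55.5 ± 9.64 CPM (SD, n = 5).

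Abcc2 was at similar levels in both sexes of young mice, with 581 ± 67.3 CPM (SD, n = 5) in females and 572 ± 59.3 CPM (SD, n = 4) in males. In old vehicle females it was at 451, 395, 514 and 379.5 CPM and in old HDM201 females at 469.6, 528, 566, 618 and 657 CPM. The treated mice were higher by 0.38 ± 0.11 (SE) on the log2 scale, with overlap, and the old vehicle females were below the young females by a log2 difference of -0.40 ± 0.11 (SE), also with overlap. In old males the difference had the other sign, -0.21 ± 0.13 (SE), with 582.2, 452, 514 and 514 CPM in vehicle and 414, 412.5, 569.9, 454 and 372.5 CPM in HDM201 mice. The drug effect in females minus that in males was 0.59 ± 0.18 (SE) on the log2 scale.

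Abcc3, the basolateral exporter, was the only one of the 9 whose log2 difference was above 0 in old against young vehicle females, at 0.19 ± 0.10 (SE). The values were 304, 266.5, 328, 295 and 278.5 CPM in young and 326, 333, 379.8 and 284 CPM in old vehicle females, which overlapped. Old HDM201 females had 252, 318, 378, 376 and 312 CPM and did not stand apart from vehicle. Males were lower, with 217 ± 49.9 CPM (SD, n = 4) in young vehicle, 211.5 ± 27.4 CPM (SD, n = 4) in old vehicle and 217 ± 82.7 CPM (SD, n = 5) in old HDM201 mice. The last group was the most spread, from 99.3 to 309 CPM.

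**Figure D4:**
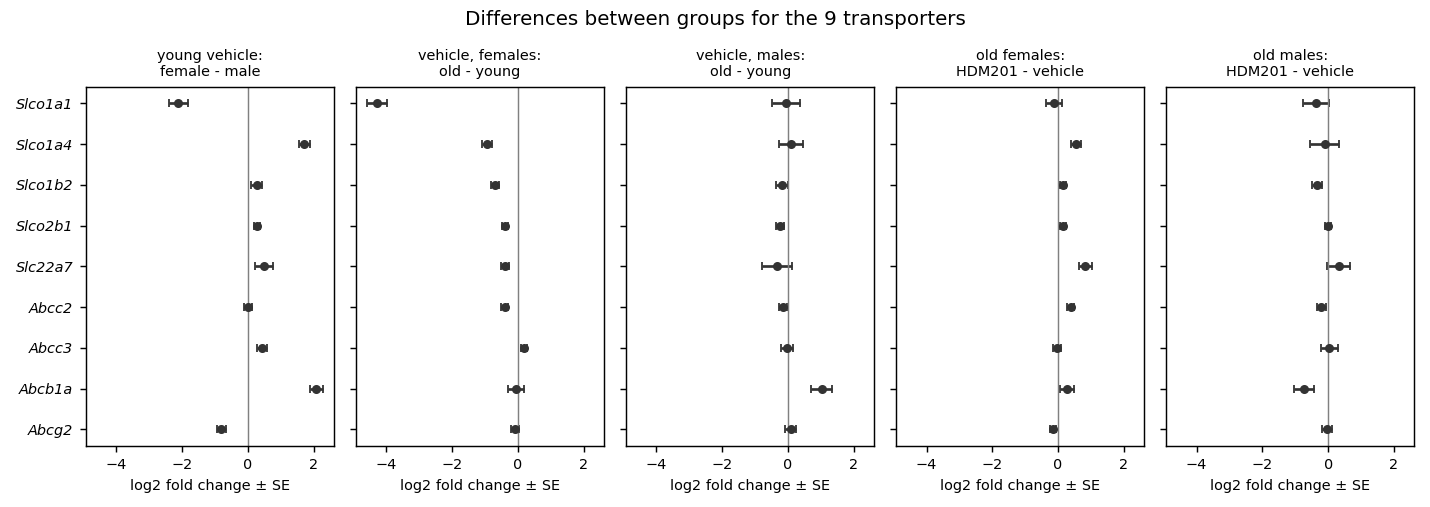
Log2 fold change (points) with its SE (bars) from the edgeR fit of each comparison, for the 9 transporters in 5 comparisons named above the panels. The sex panel holds values of both signs, from -2.11 for Slco1a1 to 2.08 for Abcb1a, and in females the age panel lies below 0 for 8 of 9 genes while the HDM201 panel lies above 0 for 6 of 9.

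Counted by comparison, the 9 genes were past a false discovery rate (FDR, Benjamini-Hochberg over all genes tested) of 0.05 in edgeR's quasi-likelihood test as follows, where the counts describe genes chosen on the same values. Between young females and males 4 of 9 passed, where 10.5% of all 13875 genes tested passed: Slco1a4 and Abcb1a were higher in females (5.63% of all genes) and Slco1a1 and Abcg2 lower (4.91% of all genes). In 4 of 9 the females were all above the males (7.0% of all genes) and in 2 of 9 all below (5.79% of all genes). Between old and young vehicle females 6 of 9 passed, namely Slco1a1, Slco1a4, Slco1b2, Slco2b1, Slc22a7 and Abcc2, all lower in old mice (31.8% of all genes passed, 15% as lower), and 4 of 9 were lower without overlap (13.3% of all genes). The median log2 difference of the 9 in that comparison was -0.39, against 0.01 over all genes, and 8 of 9 were below 0 (49.0% of all genes). Between HDM201 and vehicle in old females 1 of 9 passed (5.25% of all genes, 2.35% as higher), which was Slc22a7, also the only one without overlap on the higher side (5.31% of all genes). The median log2 difference of the 9 was 0.17, against 0.00 over all genes, and 6 of 9 were above 0 (50.2% of all genes).

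In males fewer of all genes passed. Between old and young vehicle males 0 of 9 passed in edgeR (3.69% of all genes), with 1 of 9 at an unadjusted p under 0.05 (21.9% of all genes) and 1 of 9 called by DESeq2 (9.52% of all genes), and 0 of 9 were without overlap (13.6% of all genes). Between HDM201 and vehicle in old males 0 of 9 passed in edgeR (0.00709% of all genes), with 2 of 9 at an unadjusted p under 0.05 (12.1% of all genes) and 0 called by DESeq2 (1.21% of all genes), and 0 of 9 were without overlap (4.03% of all genes). The test of whether the drug effect differed between old females and old males called 0 of 9 in edgeR (0.107% of all genes), with 3 of 9 at an unadjusted p under 0.05 (18.5% of all genes) and 1 called by DESeq2 (4.55% of all genes). The old females were labelled 20 months and the old males 24 months, so in this test sex and age cannot be told apart. The log2 difference between the effects was 1.02 ± 0.39 (SE) for Abcb1a, 0.65 ± 0.50 (SE) for Slco1a4, 0.59 ± 0.18 (SE) for Abcc2 and 0.52 ± 0.42 (SE) for Slc22a7. Their order changed without old vehicle male 2, where the values were 0.77 for Abcb1a, 0.29 for Slco1a4 and 0.81 for Slc22a7.

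The other genes of the Slco, Slc22a, Abcb, Abcc and Abcg families gave 58 rows, of which 36 were tested in at least 1 comparison. These genes were taken by symbol, with earlier results of these data known. Slco1a5 and Slco1a6, close relatives of Slco1a1 and Slco1a4, reached at most 0.0 and 0.218 CPM in any mouse. In old against young vehicle females 12 of 33 tested passed, 8 higher and 4 lower, a share of 36.4% near the 31.8% of all genes. The 4 with the largest change by edgeR were Abcc4 (a basolateral exporter of bile acids and nucleotides, log2 difference 1.87 ± 0.23 (SE), FDR 0.000152), Abcc1 (a broad conjugate exporter, 1.24 ± 0.23 (SE), FDR 0.00187), Slc22a3 (an organic cation transporter, -1.20 ± 0.16 (SE), FDR 0.000258) and Abcg3 (1.13 ± 0.23 (SE), FDR 0.00319). Abcc4 rose from 3.83 ± 1.46 CPM (SD, n = 5) in young to 13.9 ± 2.45 CPM (SD, n = 4) in old vehicle females. Abcg5 and Abcg8, whose products pair to export sterols into bile, were both lower in old females, by log2 differences of -0.73 ± 0.16 (SE) and -0.84 ± 0.17 (SE) (edgeR FDR 0.00447 and 0.00304). Slc10a1, the sinusoidal sodium-dependent bile acid carrier, fell from 1111 ± 165 CPM (SD, n = 5) to 501 ± 18.7 CPM (SD, n = 4), a log2 difference of -1.13 ± 0.11 (SE) (edgeR FDR 3.66e-05). Abcb11, the canalicular bile salt export pump, did not pass, at -0.04 ± 0.13 (SE) on the log2 scale (edgeR FDR 0.82).

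**Figure D5:**
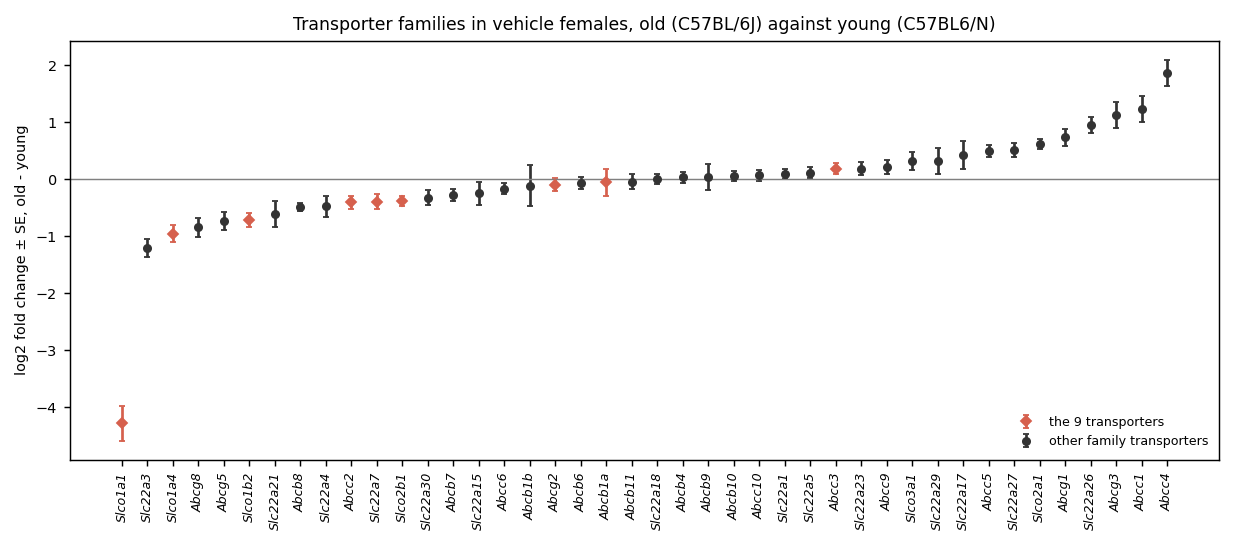
Log2 fold change (points) with its SE (bars) of old minus young vehicle females for the 9 transporters (diamonds) and the 33 other tested genes of their families (circles), ordered from lowest to highest. Slco1a1 is lowest at -4.28 and Abcc4 highest at 1.87.

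Between young females and males 7 of 35 other family genes passed (10.5% of all genes), 5 higher and 2 lower in females. The organic anion transporter genes Slc22a26, Slc22a27 and Slc22a29 were higher in females by log2 differences of 5.78 ± 0.27 (SE), 4.76 ± 0.30 (SE) and 2.63 ± 0.21 (SE) (edgeR FDR 6.39e-08, 1.14e-06 and 8.44e-06), and Slc22a28 was lower by -4.38 ± 0.38 (SE) (edgeR FDR 1.91e-05). These are related genes of a cluster, and reads shared between them could move their values. With HDM201 in old females 5 of 33 passed (5.25% of all genes), and this count was 2 without old vehicle female 2 or 4 and 3 without HDM201 female 3 or 4. Abcb4, the canalicular phospholipid flippase, rose from 188 ± 3.76 CPM (SD, n = 4) to 271 ± 32.6 CPM (SD, n = 5), a log2 difference of 0.52 ± 0.09 (SE) (edgeR FDR 0.00999), and Abcg8 rose by 0.79 ± 0.18 (SE) (edgeR FDR 0.0321). Abcg1, which moves cholesterol out of macrophages and other cells, was lower, at -0.78 ± 0.14 (SE) on the log2 scale (FDR 0.0112 in edgeR). Slc22a26 was also lower, at -0.38 ± 0.08 (SE) (FDR 0.0255), and Abcb8 passed at 0.32 ± 0.06 (SE) (edgeR FDR 0.0176).

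In males the other family genes gave few calls. Between old and young vehicle males 1 of 35 passed (3.69% of all genes), Slco3a1, at a log2 difference of 1.03 ± 0.24 (SE) (edgeR FDR 0.0443). There 11 had an unadjusted p under 0.05 and DESeq2 called 4. With HDM201 in old males 0 of 34 passed in edgeR (0.00709% of all genes), 4 had an unadjusted p under 0.05 and DESeq2 called 0. The test of a difference in drug effect between the sexes called 0 of 36 in edgeR (0.107% of all genes). There 11 had an unadjusted p under 0.05 and DESeq2 called 2. Slc10a1 did not pass in old males given HDM201 (-0.50 ± 0.23 (SE), edgeR FDR 0.412), in old females given HDM201 (-0.01 ± 0.08 (SE), FDR 0.962) or between young females and males (0.69 ± 0.25 (SE), FDR 0.0972). Between young females and males its unadjusted p in edgeR was under 0.05 and DESeq2 called it. For HDM201 in old males its unadjusted p was under 0.05 and DESeq2 did not call it. Abcb11 and Abcb1b, the close paralog of Abcb1a, did not pass in any of the 6 comparisons. Abcb1b stayed at group means of 0.639 to 1.85 CPM, and reads that match both genes could have been split or dropped by the counting.

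Transcription factors and receptors known to control these transporters were followed as a list of 16. In young mice 5 of 16 passed (10.5% of all genes), all higher in females by edgeR, and 4 of them are described. Cux2, a repressor known for its female-specific expression in liver, was at 82.2 ± 38.5 CPM (SD, n = 5) in females and 1.48 ± 1.29 CPM (SD, n = 4) in males (log2 difference 5.78 ± 0.56 (SE), FDR 4.91e-05). Nr1i3 (CAR) was higher in females by 1.05 ± 0.23 (SE) (FDR 0.0136 in edgeR), Esr1 (the estrogen receptor) by 1.03 ± 0.27 (SE) (FDR 0.0331) and Nfe2l2 (Nrf2) by 0.34 ± 0.09 (SE) (FDR 0.0302). In old against young vehicle females 2 of 16 passed, a share of 12.5% below the 31.8% of all genes, and 1 of them is described. Nr1h4, the bile acid receptor FXR, was lower by a log2 difference of -0.49 ± 0.10 (SE) (edgeR FDR 0.00291). Nr1i2 (PXR), at -0.25 ± 0.12 (SE), Nr1i3, at -0.23 ± 0.12 (SE), Nfe2l2, at -0.18 ± 0.08 (SE), and Ahr, at 0.14 ± 0.11 (SE), did not pass there.

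With HDM201 in old females 1 of 16 regulators passed, a share of 6.25% near the 5.25% of all genes. It was Hnf4a, a nuclear receptor that maintains hepatocyte identity, which fell from 742 ± 27.6 CPM (SD, n = 4) to 621 ± 19.7 CPM (SD, n = 5) at edgeR FDR 0.032. Ahr, at 0.31 ± 0.10 (SE), Nfe2l2, at 0.21 ± 0.07 (SE), Nr1i3, at 0.18 ± 0.11 (SE), and Nr1i2, at 0.12 ± 0.11 (SE), did not pass in that comparison. In males 0 of 16 passed for HDM201 (0.00709% of all genes) and 0 of 16 for age (3.69% of all genes) in edgeR. There 2 and 3 had an unadjusted p under 0.05, and DESeq2 called 1 in each. Ahr in old HDM201 males was above old vehicle males in every mouse (45.9 ± 4.23 CPM, SD, n = 5, against 30.8 ± 4.67 CPM, SD, n = 4), at an edgeR FDR of 0.171. Ghr was below in every mouse (386 ± 45.9 CPM, SD, n = 5, against 467 ± 38.9 CPM, SD, n = 4), at an edgeR FDR of 0.356. Of all genes, 4.03% were without overlap in either direction in that comparison. The test of a difference in drug effect between the sexes called 0 of 16 in edgeR (0.107% of all genes). There 3 had an unadjusted p under 0.05 and DESeq2 called 0.

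A list of 12 genes known to respond to these receptors differed in both directions between old and young vehicle females. In old against young vehicle females 8 of 12 passed (31.8% of all genes), 5 higher and 3 lower. Cyp1a1, a response gene of the aryl hydrocarbon receptor, was lower by a log2 difference of -1.38 ± 0.30 (SE) (edgeR FDR 0.00425). Its level was low, at means of 0.776 CPM in old and 2.05 CPM in young females. Cyp1a2 was also lower, at 432 ± 32.2 CPM (SD, n = 4) against 769 ± 80.0 CPM (SD, n = 5). Its log2 difference was -0.81 ± 0.10 (SE) (edgeR FDR 0.000125). Acot1 and Cyp4a14, response genes of PPAR alpha, were higher by 1.08 ± 0.23 (SE) and 1.06 ± 0.23 (SE) (edgeR FDR 0.00382 and 0.00449), and Gclc, a response gene of Nrf2, by 0.90 ± 0.16 (SE) (edgeR FDR 0.0017). Cyp2b10, the response gene of CAR, was higher in old females, at 73.3 ± 8.57 CPM (SD, n = 4) against 41.6 ± 10.8 CPM (SD, n = 5) in young females (log2 difference 0.84 ± 0.16 (SE), edgeR FDR 0.00197). Cyp3a11, another gene of the list, was lower in old females, at 949 ± 396.5 CPM (SD, n = 4) against 1676 ± 336 CPM (SD, n = 5). Its log2 difference was -0.80 ± 0.26 (SE) (edgeR FDR 0.0326), and the groups overlapped. In males Cyp2b10 was the 1 of 12 that passed between old and young vehicle mice (3.69% of all genes) and was lower in old mice, at a log2 difference of -1.85 ± 0.31 (SE) (edgeR FDR 0.014). Whether the old minus young difference of Cyp2b10 differed between the sexes was not tested. Between young females and males 2 of 12 passed (10.5% of all genes), Cyp2b10 at 1.27 ± 0.22 (SE) and Nqo1 at 0.70 ± 0.15 (SE), both higher in females (edgeR FDR 0.00416 and 0.0115). With HDM201 0 of 12 passed in edgeR in either sex (5.25% of all genes in females, 0.00709% in males). There 1 had an unadjusted p under 0.05 and DESeq2 called 0 in each. For the difference between the sexes 0 passed (0.107% of all genes), 0 had an unadjusted p under 0.05 and DESeq2 called 0.

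Some markers of other liver cells also passed in the same comparisons, and their counts are to be read beside the share of all genes passing. That share was 31.8% for age in females, 5.25% for HDM201 in old females and 10.5% for sex in young mice. In males it was 3.69% for age and 0.00709% for HDM201. In old against young vehicle females all 6 Kupffer cell and macrophage markers rose, and their summed level was 193 to 291 CPM in young, 297 to 597 CPM in old vehicle and 175 to 297 CPM in old HDM201 females. With HDM201 in old females 5 of these 6 fell by edgeR. The summed level of 4 lymphocyte markers was 7.52 to 8.68 CPM, 19.5 to 29.8 CPM and 10.4 to 14.0 CPM in the same 3 groups, with 3 of 4 higher by age and 1 of 4 lower with HDM201. The 6 cholangiocyte markers summed to 42.9 to 49.7 CPM, 49.9 to 71.7 CPM and 84.0 to 148 CPM, with 2 of 5 tested higher in each comparison. In young mice 4 of 6 macrophage markers, 2 of 6 endothelial, 2 of 5 stellate and 2 of 5 tested cholangiocyte markers were higher in females than in males. Between old and young vehicle males 2 of 3 tested lymphocyte markers, 1 of 5 tested cholangiocyte markers and 1 of 5 stellate markers were higher, and with HDM201 in males none of the lists had a marker that passed. The listed markers of these cell types were all detected in at least some mice. In old against young vehicle females 1 of 6 endothelial markers was lower and 2 of 5 stellate markers were higher. Of 6 kidney or intestine markers Fabp2 was at 17.1 to 54.4 CPM over all mice, Vil1, Lct, Slc22a6 and Slc34a1 reached at most 1.91, 0.181, 0.122 and 0.0574 CPM, and Umod had 0 counts in all 27 mice. Of the 2 tested in females 1 was lower with age and 1 higher with HDM201. Of the 8 hepatocyte markers 3 were lower in old vehicle females, with a median log2 difference of -0.26 over the list. The part of these shifts in the transporter values was not tested.

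The 3 genes whose pattern over the 27 mice was most like that of each transporter were ranked by Pearson's r of log2 CPM among 12766 genes with a mean of at least 1 CPM. The points are mice of 6 groups that share sex, age and treatment, and the value within groups (after subtracting each group's mean) is given as well. For Slco1a1 they were Cyp2d9, C8b and Mug1, with values of 0.965, 0.964 and 0.963 over all mice and 0.676, 0.204 and 0.367 within groups. For Abcg2 they were Nat8f5 (0.956, and 0.738 within groups), Cyp2d9 (0.932, 0.699) and Susd4 (0.93, 0.528), so Cyp2d9 appeared beside both of the transporters that were higher in males. For Abcb1a they were Cyp2a4 (0.957, 0.715), Slc22a27 (0.932, 0.696) and Cux2 (0.925, 0.613). For Slco1a4 they were Sult1a1 (0.928, 0.84), Cyp2c68 (0.907, 0.736) and Cyp2c40 (0.889, 0.713).

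The remaining transporters, whose levels followed sex less, had other neighbours. For Abcc2 the nearest were Abcg8 (0.858, and 0.701 within groups), Abcg5 (0.826, 0.719) and Fam120a (0.816, 0.689), so both sterol exporter genes were among the 3. For Abcc3 they were Ugt1a1, the enzyme that glucuronidates bilirubin (0.878, 0.801), Cyp2c37 (0.847, 0.767) and Stau1 (0.838, 0.686). For Slco1b2 they were Mfsd4b1 (0.892, 0.761), Hibch (0.883, 0.712) and Mup2 (0.877, 0.793), and for Slco2b1 they were Mpzl2 (0.931, 0.8), Rab5b (0.92, 0.813) and Shpk (0.911, 0.781). For Slc22a7 they were Carhsp1 (0.849, 0.834), Akt2 (0.803, 0.668) and S100a10 (0.797, 0.733).

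Old vehicle male 2 was lowest or highest of its group in several of these genes at the same time. None of its transporter values was among those flagged below as far from their group. This mouse had the lowest Slco1a1 (69.5 CPM), Slc22a7 (3.98 CPM), Slco1b2 (549 CPM) and Slco2b1 (148.0 CPM) of its group and the highest Slco1a4 (128 CPM), Abcb1a (12.7 CPM) and Abcc2 (582.2 CPM). Cyp2d9 was at 312 CPM in this mouse, the lowest of its group, and Cyp2a4, which is known to be higher in female liver, was at 241 CPM, the highest of its group. Without this mouse the log2 difference of HDM201 minus vehicle in old males was -0.68 for Slco1a1, 0.27 for Slco1a4, 0.03 for Slc22a7, -0.44 for Slco1b2 and -0.48 for Abcb1a.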

How the data were processed

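Whole liver polyA RNA was sequenced in 29 mice. Reads were mapped by the authors with STAR (mm10, 2 passes) and filtered with SAMtools. The authors deposited raw counts per gene from HTSeq for 27 mice and FPKM from Cufflinks for 29, which the study used for visualization. The tool versions and strand setting are not given in the sources used here. The deposited FPKM sum to between 690769 and 6010510 per mouse and served to compare genes and for the 2 mice without counts. Gene IDs were matched to GENCODE vM21 (54587 of 55421).

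For each comparison only the groups named in it entered the edgeR 4.0.16 fit (R 4.3.3), with filterByExpr with a minimum count of 10 and total of 15, TMM scaling, the quasi-likelihood test and an FDR of 0.05 over all genes tested. The difference in drug effect between the sexes was fitted on the 4 old groups with sex, treatment and their product. CPM use TMM factors from all 27 mice together, so their scaling can differ from that of each fit. The fit was tested on simulated counts with known changes. Replicates were separate mice, and the labels name no batch. Alternatives were DESeq2 1.42.0, RLE size factors, no filter, all 6 groups together, the replicate number as a block, FPKM ratios and leaving out each mouse.

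The 9 genes and all lists were chosen with earlier results of these data known. Named beyond the 9 were up to 4 family genes per comparison with the largest change among those called, 6 fixed transporters, regulators that were called (except 1 that is not reported here) plus Nr1i2, Nr1i3, Nfe2l2 and Ahr, up to 4 called response genes per comparison (and Cyp2b10 in females, chosen after its values were seen), and the 3 genes most like each transporter. Abcg5, Abcg8, Cyp1a2 and Cyp3a11 in old against young females were named after their values were seen. So were Slc22a26 and Abcb8 with HDM201, and Ahr and Ghr in males. Promoter letters are from RefSeq for GRCm38.p6.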

Additional observations from a re-analysis of the deposited data

Results flagged for a closer look

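In 54 checks of a gene within a group, the highest or lowest mouse lay far from its group in 3, where chance gives about 1 in 20. These were Slc22a7 in old vehicle female 4 (19.3 CPM, above 3 mice at 14.3 to 14.9 CPM), Abcb1a in old HDM201 male 4 (7.08 CPM, above 4 mice at 4.3 to 4.91 CPM) and Abcg2 in old vehicle male 5 (77.0 CPM, above 3 mice at 49.1 to 51.6 CPM). The first of these mice set the closeness of the vehicle and HDM201 groups for Slc22a7, where the log2 difference was 0.94 without it.

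Of the 2 males with FPKM and no counts, young vehicle male 5 had 13.8 FPKM of Slc22a7, above the 4 other young males (at most 10.3 FPKM). Old vehicle male 1 lay above the 4 other old vehicle males for Abcc2 (131.1 against at most 106.1 FPKM), Abcc3 (137.0 against at most 60.6 FPKM), Abcb1a (3.79 against at most 3.11 FPKM) and Abcg2 (48.2 against at most 31.8 FPKM). No count stands behind these values, so the depth is unknown.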

How the results depend on the processing

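Of the 9 transporters' log2 differences, 870 values under other settings moved by less than their SD between replicates and 3 moved further, all from mean FPKM for age in females: -6.18 for Slco1a1, -0.16 for Slco2b1 and 0.16 for Abcg2. In 49 of these values the sign changed, all for differences of at most 0.26 in size. The counts of calls moved more. For HDM201 in old females, 1 of the 9 passed, against 3 by DESeq2, 3 with no filter, 0 with all 6 groups together and 0 to 2 when a mouse was left out (0 on leaving out HDM201 female 3 or old vehicle females 1, 2 or 4, and 2 on leaving out old vehicle female 3), and 5 other family genes passed, against 2 with all 6 groups, 3 with the replicate block and 2 to 6 when a mouse was left out (2 on leaving out old vehicle female 2 or 4 and 3 on leaving out HDM201 female 3 or 4). For age in males, 0 of the 9 passed, against 1 by DESeq2, 1 with no filter, 1 with all 6 groups and 0 to 1 when a mouse was left out (1 without old vehicle male 3), and 1 other family gene passed, against 4, 4 and 6 in the same settings, 0 with the replicate block and 0 to 1 when a mouse was left out (1 without old vehicle male 3 or 5). For the difference in drug effect between the sexes, 0 of the 9 passed, against 1 by DESeq2, and 0 other family genes, against 2 by DESeq2, 1 with no filter and 0 to 1 when a mouse was left out. For age in females 4 to 6 of the 9 (4 without old vehicle female 2) and 12 to 13 others passed when a mouse was left out, and for sex in young mice 4 to 5 of the 9 and 5 to 9 others. The causes were not tested. Replicate numbers were given to mice of different groups with no stated link. Same-numbered mice correlated between -0.233 and 0.241, over 3 or 4 pairs per comparison. Of 4 pairs, 2 correlated best with their own number for HDM201 in females and for sex, against 1 for HDM201 in males and 0 for age in either sex. Whether same-numbered mice share more than a number was not tested. With that block the genes called over the whole table were 366 against 758 for HDM201 in females, 1 against 1 in males, 3454 against 4530 for age in females, 29 against 507 in males, 858 against 1462 for sex and 0 against 16 for the difference between the sexes. By DESeq2 they were 1329, 171, 4798, 1309, 2124 and 682. No setting moved the median of all genes by more than 0.1 on the log2 scale. Low levels such as Slco1a1 in old females (33 to 87 reads) limit the precision of their differences, and groups of 4 or 5 mice limit the rest.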

Other observations

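The 2 males without counts lay outside the other mice of their group for most of the 9 transporters in the deposited FPKM. Young vehicle male 5 was below the 4 others for 7 of 9, with the widest gaps for Abcc2 (35.1 against at least 96.6 FPKM), Abcb1a (0.223 against at least 0.833 FPKM) and Slco1a4 (5.03 against at least 13.0 FPKM). Its Slco1a1 was at 27.7 FPKM, where the others were between 34.0 and 77.7 FPKM. Old vehicle male 1 was below the 4 others for Slco1a1 (13.1 against at least 16.6 FPKM) and Slco1b2 (123 against at least 146 FPKM), above them for the 4 exporters, and within their range for Slco1a4, Slco2b1 and Slc22a7. Neither mouse entered a comparison.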
